A study of Mus musculus with 32 samples.

Results

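The 10 genes described here are dendritic cell genes, namely Ly75, Batf3, Xcr1, Clec9a, Flt3, Zbtb46, Ccr7, Cd209a, Itgae and Fscn1. They were taken by symbol from a count table of 29511 genes and from the matching table of FPKM, and all 10 were found in both. The RNA came from female FVB/N mice, virgin littermates that entered the experiments at 6 to 8 weeks of age and were either Clic4 KO or WT. 6DT1 mammary tumor cells, which derive from an MMTV-Myc tumor and carry Clic4, were placed in the mammary fat pad, and after 14 days the primary tumors of 6 KO and 6 WT hosts were taken, and lungs of tumor-bearing mice, 6 of each genotype. Control lungs without a tumor came from 4 KO and 4 WT mice. The KO is constitutive and covers every host cell, so within a tumor only the host cells lack Clic4. The study asked how the loss of host CLIC4 changes the tumor and the lung before metastases grow, and the comparisons are KO against WT in each tissue and 14-day against control lungs in each genotype.

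Dendritic cells take up antigen in tissues, mature, and carry it to lymph nodes to prime T cells. Type 1 conventional dendritic cells depend on the transcription factor BATF3, take up dead cells through CLEC9A and present their antigen to CD8 T cells, while type 2 cells mainly serve CD4 T cells. Both arise from precursors that need the receptor FLT3, and mature cells of either type gain CCR7 and move along CCL19 and CCL21. Single transcripts of this list are also made elsewhere: Ccr7 by naive T cells and B cells, Itgae by tissue-resident T cells, Fscn1 by motile carcinoma cells, Zbtb46 by endothelium and Ly75 by some epithelium. In bulk RNA, a change in the number of cells of a type and a change in RNA per cell cannot be told apart.

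The promoters of Ly75, the member that rose in tumors of KO hosts, and of Fscn1, the member with the highest level in tumors, are shown as the part of the RefSeq window on GRCm38.p6 that lies before the gene as GENCODE draws it. It ends 30 bases before the RefSeq start for Ly75 and 12 bases before it for Fscn1. The window of Ly75 is chr2:60383304-60383523 on the minus strand with 65.0% G and C, and that of Fscn1 is chr5:142960105-142960342 on the plus strand with 61.8%. Both read 5′ to 3′ in lower case, since neither held a searched motif that would be written in capitals.
Ly75: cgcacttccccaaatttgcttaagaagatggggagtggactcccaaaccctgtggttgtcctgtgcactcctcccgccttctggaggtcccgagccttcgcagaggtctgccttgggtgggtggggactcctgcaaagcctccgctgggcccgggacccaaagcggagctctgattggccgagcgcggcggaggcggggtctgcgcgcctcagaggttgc
Fscn1: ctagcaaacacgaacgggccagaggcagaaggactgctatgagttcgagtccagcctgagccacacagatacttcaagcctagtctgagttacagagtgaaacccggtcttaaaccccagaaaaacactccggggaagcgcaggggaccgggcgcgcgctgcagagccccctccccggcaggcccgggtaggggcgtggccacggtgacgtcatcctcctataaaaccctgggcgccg

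RefSeq promoters, 250 bases before to 50 after the start, were matched for 8 of the 10 members, all but Ccr7 and Itgae. They were searched on both strands for the core of interferon-stimulated response elements, which is GAAA, any 2 bases and GAAA again, for TTCNNNGAA, the form bound by STAT factors, and for TGANTCA, the form bound by AP-1 and BATF factors. No matched member held the first of these, which 3.44% of 32851 promoters held. Batf3 held 1 TTCNNNGAA, present in 8.298% of promoters, and Zbtb46 held 1 TGANTCA, present in 7.81%. The starts used for Ly75, Fscn1, Batf3 and Zbtb46 lie inside the genes as GENCODE draws them. No peak or methylation data bear on these windows here.

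A library held 4446323 to 8318711 counts. At that depth several members rested on few counts, with Xcr1 at 3 to 22 counts and Batf3 at 4 to 23 counts in a tumor. Clic4, the targeted gene, stood at 58.2 to 74.6 FPKM in 14-day KO lungs against 155 to 230 FPKM in WT lungs, a log2 fold change of -1.49, and remained detectable in KO mice. In tumors, where the implanted cells supply it, its log2 fold change was -0.21. The 6 lung epithelial markers summed to at least 15362 CPM in every lung and to at most 3.44 CPM in a tumor, and the 4 epithelial markers to 453 to 673 CPM in tumors, as the labels have it. The WT tumor of replicate 2 stood apart, with a summed level of 7 B cell markers of 54.3 CPM against 0.713 to 4.99 CPM in the other 11 tumors, and the comparison of KO with WT hosts in tumors is also given without it.

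**Figure D1:**
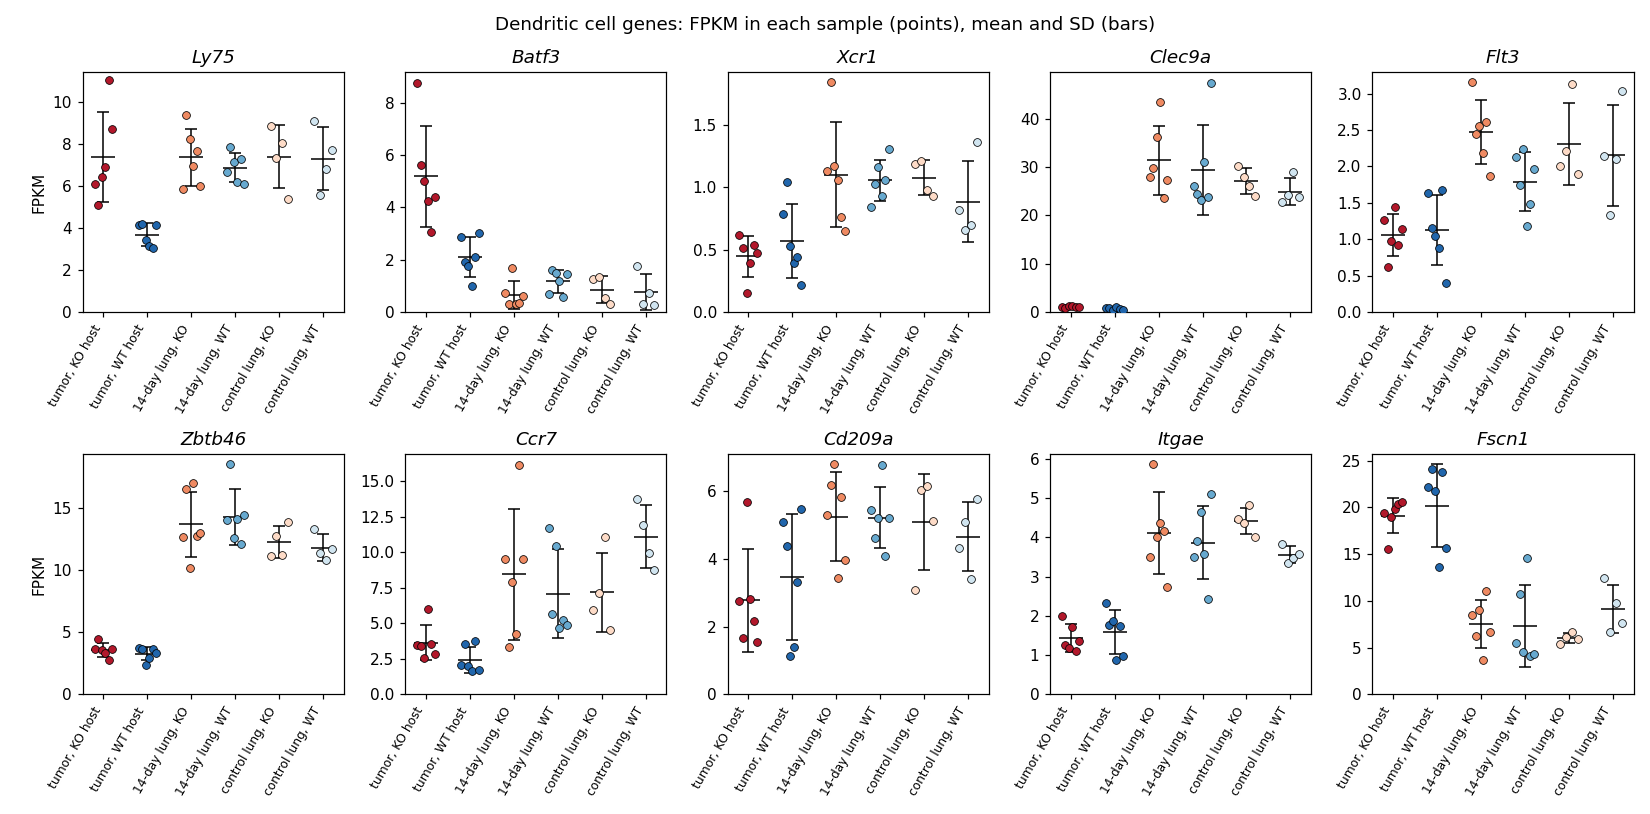
FPKM (y axis, linear, from 0) of the 10 members in each of the 32 samples, by group (x axis), with the mean as a horizontal line and the SD as bars. Ly75 and Batf3 are higher in every tumor of a KO host than in any tumor of a WT host, and Clec9a, Zbtb46 and Itgae are lower in every tumor than in any lung.

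In tumors, Ly75 rose in KO hosts and was the only one of the 9 members tested to pass. Ly75 encodes DEC-205, an endocytic receptor that delivers antigen to the presentation pathways of dendritic cells. Its levels in tumors of KO hosts were 6.07, 5.08, 6.44, 6.89, 11.01 and 8.69 FPKM. In tumors of WT hosts they were 4.15, 4.18, 3.41, 3.14, 3.04 and 4.16 FPKM. The groups did not overlap, the KO tumors of replicates 5 and 6 were the highest, and the WT tumors lay close together. The means were 7.36 ± 2.15 FPKM (SD, n = 6) and 3.68 ± 0.543 FPKM (SD, n = 6), and the counts were 141 to 445 against 88 to 149. The log2 fold change was 1.02 with an SE of 0.17 (edgeR quasi-likelihood test, FDR 0.0026). Of all 13830 genes tested in tumors, 2.51% were called at FDR 0.05 and 2.02% were called higher in KO hosts. The call held in all 12 fits that left out 1 tumor, at a log2 fold change of 0.86 to 1.10, and without the WT tumor of replicate 2 it was 1.04 (FDR 0.00809). Ly75 shares 249 exon bases with the antisense gene Gm13571, the libraries were stranded, and the strand setting of the counting was not given in the sources used here.

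Batf3, the transcription factor on which type 1 dendritic cells depend, had a higher FPKM in each tumor of a KO host than in any tumor of a WT host, on few counts. The KO tumors held 23, 20, 16, 12, 12 and 14 counts and the WT tumors 10, 5, 6, 4, 8 and 9 counts. As FPKM these were 8.75, 5.62, 5.02, 4.26, 3.06 and 4.4 in KO hosts and 2.88, 1.92, 1.76, 0.99, 2.10 and 3.03 in WT hosts. The groups did not overlap in FPKM, although the lowest KO tumor and the highest WT tumor were nearly level, at 3.06 and 3.03 FPKM. The counts did not overlap either, but they are not scaled for the depth of each library. Ly75 and Batf3 were thus the 2 of 10 members without overlap in FPKM, where 1.01% of 21744 genes with a mean of at least 0.1 FPKM had none. edgeR's filter on low counts left Batf3 out of the test. Without that filter its log2 fold change was 1.28 with an SE of 0.33 and it missed the limit (edgeR FDR 0.0789). In 7 fits without 1 tumor that admitted it, it was called in 2. The FDR was 0.037 without the KO tumor of replicate 5 and 0.0375 without the WT tumor of replicate 6. Those fits admitted it through its counts in the KO tumors, where it was high, so the 2 calls are not independent of that difference.

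No other member passed in tumors, in either direction. Among the genes of type 1 cells, Clec9a, the receptor for dead cells, stood at 0.90 to 1.32 FPKM (median 1.09) in KO hosts and 0.47 to 0.97 FPKM (median 0.71) in WT hosts, with a log2 fold change of 0.56 and an SE of 0.23 (edgeR FDR 0.268). The 2 ranges overlapped only between the lowest KO and the highest WT tumors. Xcr1, the receptor for the chemokine XCL1, was at 0.15 to 0.62 FPKM (median 0.49) and 0.22 to 1.04 FPKM (median 0.485), with a log2 fold change of -0.33 and an SE of 0.34 (edgeR FDR 0.705). Its sign was opposite to that of Ly75 and Clec9a, and the difference was within its spread. Leaving out the WT tumor of replicate 2, which held the highest Xcr1 level, took the log2 fold change to -0.11. Itgae, the integrin alpha chain CD103 that pairs with beta 7 and binds E-cadherin, differed by -0.11 with an SE of 0.23 on the log2 scale.

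Ccr7, the receptor that guides mature dendritic cells and naive lymphocytes to lymph nodes, was at 2.54 to 5.99 FPKM (median 3.43) in tumors of KO hosts and 1.64 to 3.72 FPKM (median 2.03) in tumors of WT hosts. The highest value, in the KO tumor of replicate 4, lay well above the rest, and the ranges overlapped. The log2 fold change was 0.60 with an SE of 0.25 (edgeR FDR 0.257), and without the WT tumor of replicate 2 it was 0.71 (FDR 0.212). Fscn1, which bundles actin in the processes of mature dendritic cells, reached 13.7 to 24.1 FPKM over the 12 tumors and differed between hosts by -0.06 with an SE of 0.10 on the log2 scale.

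The genes shared by several dendritic cell types differed little. Flt3, the receptor of dendritic cell precursors, had a log2 fold change of -0.07 with an SE of 0.27, and Zbtb46, a transcription factor of conventional dendritic cells, had 0.15 with an SE of 0.14. Cd209a, a lectin of monocyte-derived and type 2 cells, had -0.31 with an SE of 0.39. Without the WT tumor of replicate 2, no member other than Ly75 was called by edgeR, with Clec9a at 0.65 (FDR 0.252), Zbtb46 at 0.16, Flt3 at -0.07 and Cd209a at -0.24 on the log2 scale. The Cd209a levels ranged widely within both groups, from 1.56 to 5.70 FPKM in KO hosts and from 1.13 to 5.48 FPKM in WT hosts. The median log2 fold change of the 9 members tested was -0.06, beside -0.01 over all genes tested.

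**Figure D2:**
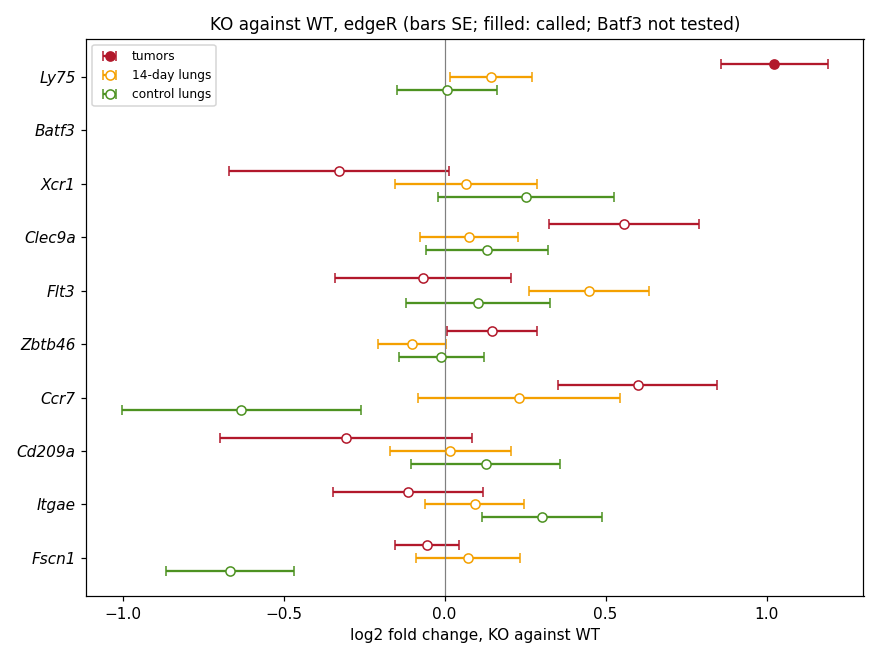
Log2 fold change of KO against WT (x axis) for each member (y axis) in tumors, 14-day lungs and control lungs, with bars of 1 SE, filled where called. Ly75 in tumors, at 1.02, is the only filled point, and Batf3 has no point because edgeR's filter left it out.

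Of other dendritic cell genes, 3 rose in tumors of KO hosts, where 2.02% of all genes were called higher. Of 8 tested genes of type 1 cells, 1 rose, Irf8, the factor that specifies these cells and is also made by macrophages, at 20.8 to 37.2 FPKM against 15.2 to 21.2 FPKM and a log2 fold change of 0.72 (edgeR FDR 0.00452). Of 7 tested genes of type 2 cells, 1 rose, the lectin Clec10a, at 0.82 (edgeR FDR 0.0265). Of 12 tested genes of mature cells, 1 rose, Pdcd1lg2, which encodes the PD-1 ligand PD-L2, from 2.47 ± 1.28 FPKM (SD, n = 6) in WT hosts to 10.8 ± 2.41 FPKM (SD, n = 6) in KO hosts, at a log2 fold change of 2.16 (edgeR FDR 0.000322). None of the 4 tested genes of plasmacytoid cells was called, and none of these lists had a member that fell. Log2 fold changes were above 0 for 6 of the 8, 7 of the 7, 11 of the 12 and 3 of the 4, with medians of 0.42, 0.47, 0.50 and 0.32, beside -0.01 over all genes tested. Without the WT tumor of replicate 2, Irf8 was at 0.75 (edgeR FDR 0.00945) and Pdcd1lg2 at 2.04 (FDR 0.00155), Clec10a was no longer called at 0.82 (FDR 0.053), and Cd40, a costimulatory receptor of mature cells, was called at 0.76 (FDR 0.0299).

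Of the markers of other immune cells, 3 rose in tumors of KO hosts beside Ly75, 1 of macrophages and 2 of T cells, where 2.02% of all genes were called higher. The summed level of 8 macrophage markers was 725 to 1131 CPM in tumors of KO hosts and 406 to 873 CPM in tumors of WT hosts, and 1 of the 8, the complement gene C1qb, rose, at 0.73 on the log2 scale. The summed level of 9 T cell markers was 32.8 to 62.4 CPM and 11.6 to 54.1 CPM, and 2 of 8 tested rose, Cd3d at 1.46 and Cd3g at 1.31 on the log2 scale. The 54.1 CPM was the WT tumor of replicate 2, and the other 5 WT tumors, at 11.6 to 29.7 CPM, lay below every KO tumor. Without that tumor the macrophage range was the same and C1qb was no longer called at 0.78 (edgeR FDR 0.0528), while Cd3d at 1.81, Cd3g at 1.49, Cd8a at 1.83 and Cd5 at 1.40 were called. No marker of either list was at 0 in all tumors of a group. None of 4 tested neutrophil markers and none of 5 tested NK cell markers was called, and their sums overlapped, at 16.2 to 43.7 CPM in KO and 16.4 to 26.4 CPM in WT hosts for neutrophils and 22.6 to 38.1 CPM and 13.8 to 42.8 CPM for NK cells. The 4 epithelial markers summed to 453 to 547 CPM in KO hosts and 513 to 673 CPM in WT hosts, with none called. The part of these cells in the difference in Ly75 was not tested.

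The ligands of the members were examined beside them. Flt3l, the growth factor that binds FLT3, was at 3.19 to 11.3 FPKM in tumors of KO hosts and 5.48 to 8.82 FPKM in tumors of WT hosts, with a log2 fold change of 0.23 (edgeR FDR 0.599). Xcl1, the ligand of XCR1, had 5 to 7 counts in tumors of KO hosts and 1 to 7 counts in tumors of WT hosts, and Ccl19, a ligand of CCR7, had 2 to 10 and 0 to 17 counts, with the 17 in the WT tumor of replicate 2. Both were too low to test. Itgb7, the chain that pairs with the Itgae product, and Cdh1, which encodes E-cadherin, had log2 fold changes of 0.32 and 0.68, and neither was called.

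In lungs, no member was called by edgeR in any comparison. Of the 9 tested, 0 passed FDR 0.25 in 14-day lungs of KO against WT mice, where 0.861% of 16029 genes did, and 0 passed in control lungs of KO against WT mice, where 0.973% did. For 14-day against control lungs the counts were 0 of 9 in KO mice, beside 1.05% of all genes, and 0 of 9 in WT mice, beside 2.33%. For the interaction of genotype and tumor it was 0 of 9, beside 0.0499%. In each of the 5 comparisons exactly 1 member had an unadjusted p below 0.05 and DESeq2 called 0. Batf3, at 1 to 7 counts in a lung, was not tested.

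Fscn1 came nearest in control lungs. It was at 5.44, 6.14, 6.62 and 5.94 FPKM in KO mice and at 12.4, 6.67, 9.80 and 7.66 FPKM in WT mice. The groups did not overlap, though the WT library of replicate 2 lay almost level with the highest KO library. The log2 fold change was -0.67 with an SE of 0.20 (edgeR FDR 0.267), just outside the limit of 0.25. It passed at an FDR of 0.247 without the WT control lung of replicate 4, at 0.240 when only genes with at least 10 counts in every sample were kept, and at 0.137 when the 8 control lungs were fitted alone. In 14-day lungs the groups overlapped, at 3.68 to 11.1 FPKM in KO mice and 4.14 to 14.6 FPKM in WT mice, and the log2 fold change was 0.07 with an SE of 0.16. The difference between these 2 effects of the KO was 0.74 with an SE of 0.26 on the log2 scale (edgeR FDR 0.438). FPKM and counts did not rank the lungs alike, since the WT 14-day lung of replicate 4 had the highest FPKM of its group, 14.6, on 53 counts, and that of replicate 2 had 10.7 on 63 counts.

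Itgae also did not overlap between control lungs, with 4.48, 4.36, 4.82 and 4.02 FPKM in KO mice and 3.84, 3.35, 3.48 and 3.57 FPKM in WT mice. Its log2 fold change was 0.30 with an SE of 0.19 (edgeR FDR 0.540). It was called at an FDR of 0.235 only when the control lungs were fitted alone. Fscn1 and Itgae were thus 2 of 10 members without overlap in this comparison, where 5.23% of 22568 genes had none. In the other lung comparisons no member was without overlap, beside 0.42% of genes for KO against WT at 14 days, 1.5% for 14 days against control in KO mice and 1.98% in WT mice.

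Flt3 had the smallest p of the members in 14-day lungs of KO against WT mice, and was not called. The 6 KO lungs ranged from 1.87 to 3.16 FPKM (median 2.50) and the 6 WT lungs from 1.18 to 2.24 FPKM (median 1.85). The log2 fold change was 0.45 with an SE of 0.19 (edgeR FDR 0.522). In control lungs, at 1.89 to 3.13 FPKM in KO and 1.33 to 3.03 FPKM in WT mice, it was 0.10 with an SE of 0.22. Flt3l did not follow it, at 18.7 to 26.9 FPKM in 14-day KO lungs and 19.5 to 27.0 FPKM in 14-day WT lungs.

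Zbtb46 in WT lungs was at 12.1 to 18.5 FPKM at 14 days and at 13.3, 11.4, 10.8 and 11.7 FPKM in controls. The log2 fold change was 0.28 with an SE of 0.12 (edgeR FDR 0.379), and the ranges overlapped. With the replicate number as a block it was 0.33 and was called (edgeR FDR 0.237). In KO lungs it was 0.18 with an SE of 0.12. Xcr1, Clec9a, Cd209a and Ly75 had log2 fold changes of -0.19 to 0.25 in the 5 lung comparisons, each within 2 SE of 0.

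Of the other dendritic cell genes, a few passed in lungs, out of 9 tested genes of type 1 cells, 8 of type 2 cells, 11 of mature cells and 8 of plasmacytoid cells. In control lungs of KO against WT mice these were 1, 0, 0 and 2, beside 0.973% of all genes, in WT mice at 14 days against control 0, 1, 0 and 2, beside 2.33%, and in KO mice 0, 0, 0 and 1, beside 1.05%. In control lungs, Irf8 was lower in KO mice at a log2 fold change of -0.51 (edgeR FDR 0.249), and the plasmacytoid list genes Klk1, a kallikrein, and Pacsin1, an endocytic adaptor, were lower at -1.69 and -1.55. In WT mice at 14 days against control, Dtx1, a Notch pathway gene, fell by 0.98 on the log2 scale, and Siglech and Spib, a receptor and a transcription factor of plasmacytoid cells, fell by 0.97 and 0.91. In KO mice Klk1 rose by 1.22 on the log2 scale. At 14 days no gene of these lists was called between KO and WT lungs. Of the neutrophil markers, 3 of 5 tested were higher in WT mice at 14 days, the chemokine receptor gene Cxcr2 at 1.34 and the calprotectin genes S100a8 and S100a9 at 2.02 and 2.05 on the log2 scale, and 2 of 5 in KO mice, Csf3r, the G-CSF receptor gene, at 1.42 and Cxcr2 at 1.02. The 6 markers of the list summed to 34.4 to 345 CPM in 14-day lungs and 42.9 to 91.9 CPM in control lungs. Of 6 lung epithelial markers 1 was lower in WT mice at 14 days, the surfactant gene Sftpb, at -0.26. Spib and Dtx1 are also made by B cells, and lymphocyte markers, of which 1 passed the test, are given beside them. Of 7 B cell markers tested 0 were called, and all 7 had log2 fold changes below 0 both in control lungs of KO against WT mice, with a median of -0.79 and 4 unadjusted p below 0.05, and in WT mice at 14 days against control, with a median of -0.77 and 3 below 0.05. They summed to 84.4 to 114 CPM in WT control lungs, 25.7 to 72.0 CPM in KO control lungs and 27.0 to 90.5 CPM in 14-day WT lungs. Of 5 tested NK cell markers all 5 were below 0 in both comparisons, with medians of -0.65 and -0.53, and 1 was called, the perforin gene Prf1, at -1.01 in control lungs (edgeR FDR 0.233). The 6 NK cell markers summed to 51.1 to 93.3 CPM in WT control lungs, 16.8 to 53.1 CPM in KO control lungs and 31.6 to 87.6 CPM in 14-day WT lungs. Of 9 T cell markers 0 were called and all 9 were below 0 in both, with medians of -0.39 and -0.31. The part of lymphocytes in these results was not tested.

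**Figure D3:**
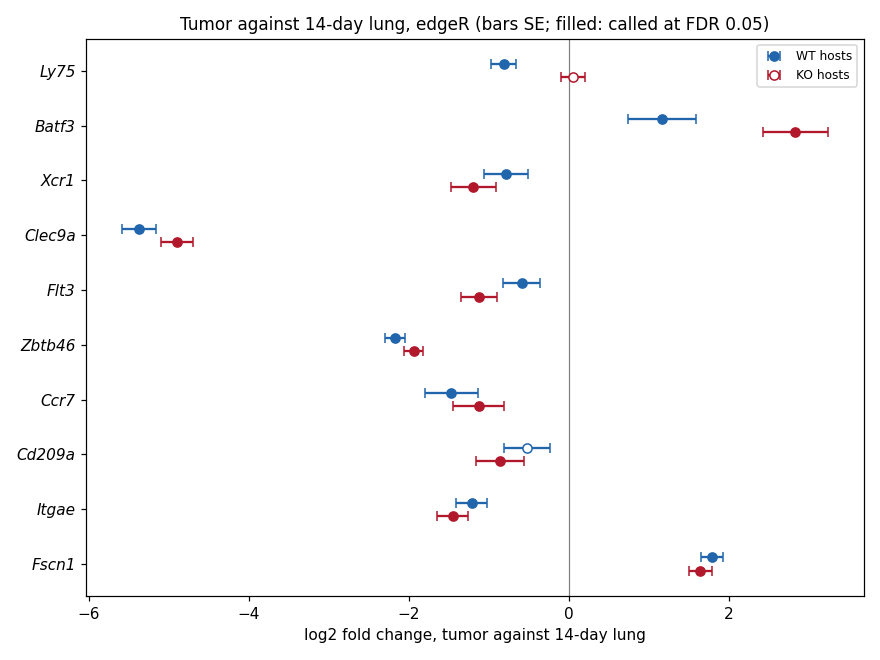
Log2 fold change of tumor against 14-day lung (x axis) for each member (y axis) in WT and KO hosts, with bars of 1 SE, filled where called at FDR 0.05. Clec9a lies farthest to the left, at -5.37 in WT and -4.89 in KO hosts, and Batf3 and Fscn1 lie to the right of 0 in both.

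Tumors and 14-day lungs differed for most members. In WT hosts 9 of 10 were called, 7 lower and 2 higher in tumors, and in KO hosts also 9 of 10, 7 lower and 2 higher. Of all 16825 genes, 75.9% were called in WT hosts, 38.4% lower and 37.5% higher in tumors, and 74.4% in KO hosts, 37.2% in each direction, so the tissues differed for most genes measured. Fscn1 was higher in tumors, at 1.79 with an SE of 0.14 in WT hosts and 1.65 with an SE of 0.14 in KO hosts on the log2 scale. Batf3 was higher too, at 1.16 with an SE of 0.43 in WT hosts and 2.84 with an SE of 0.41 in KO hosts. Batf3 passed the filter of this fit through the tumors, where it was high. Of the 20 lungs, 1 lay within the tumor range for Fscn1 and 8 did so for Batf3.

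The members that were lower in tumors differed in size. The log2 fold changes in WT and KO hosts were -5.37 and -4.89 for Clec9a, -2.17 and -1.94 for Zbtb46, -1.47 and -1.12 for Ccr7 and -1.21 and -1.45 for Itgae. They were -0.78 and -1.19 for Xcr1 and -0.59 and -1.12 for Flt3, and Flt3 lost its call in WT hosts in 3 of 12 fits without 1 library. Cd209a fell by 0.86 on the log2 scale in KO hosts, and in WT hosts its log2 fold change was -0.52 (edgeR FDR 0.102). For Clec9a, Zbtb46 and Itgae no tumor of the 12 overlapped any lung of the 20, which held for 25.9% of 23141 genes. The other 7 members overlapped between the tissues.

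The difference of Ly75 between tumor and lung was not the same in both host genotypes. In WT hosts it was lower in tumors than in 14-day lungs, at -0.81 with an SE of 0.16 on the log2 scale. In KO hosts it was level, at 0.06 with an SE of 0.15. The KO effect in tumors minus that in 14-day lungs was 0.87 with an SE of 0.22 (edgeR FDR 0.0408), beside 1.06% of all genes called, and Ly75 was 1 of 10 members called. The call was lost in 13 of 24 fits without 1 sample. Over the 24 fits the value was 0.71 to 0.96 and the FDR 0.0168 to 0.0934. The call was lost even where the value hardly moved, as at 0.88 without the 14-day KO lung of replicate 5 (edgeR FDR 0.0546). The lowest value came without the KO tumor of replicate 5. With a block for genotype and replicate number, fitted to tumors and 14-day lungs only, it was 0.85 and was not called (edgeR FDR 0.108). For Batf3, which passed the filter through the tumors, the same difference was 1.67 with an SE of 0.62 (edgeR FDR 0.228). Whether a tumor and a lung came from 1 mouse is not given in the labels.

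The ligands split between the tissues. Flt3l, Ccl19, Csf2, the growth factor GM-CSF that acts on dendritic cells, and Cdh1 were lower in tumors than in 14-day lungs in both genotypes, with Flt3l at -1.79 in WT hosts on the log2 scale. Itgb7 was higher in tumors, at 1.57 and 1.66, while Itgae was lower. Macrophage markers were higher in tumors in 7 of 8 cases in both genotypes, and all 5 endothelial markers were lower, with medians of -4.28 in WT and -4.38 in KO hosts. The endothelial list was chosen after the data were seen.

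Other dendritic cell genes also differed between tumors and 14-day lungs, beside the 75.9% and 74.4% of all genes called. Of 9 tested genes of type 1 cells, 2 were higher and 6 lower in tumors of WT hosts and 2 and 4 of KO hosts, with Cadm1, an adhesion molecule, at -0.63 and -0.75 and Wdfy4, needed for cross-presentation, at -1.10 and -1.26 on the log2 scale in WT and KO hosts. Of 8 genes of type 2 cells, 3 were higher and 4 lower in WT hosts and 4 and 2 in KO hosts, with the lectin genes Clec10a at 2.81 and 3.65 and Mgl2 at 1.26 and 1.83, and the transcription factor Klf4 at -2.28 and -1.97. Of 13 genes of mature cells, 5 were higher and 3 lower in WT hosts and 6 and 3 in KO hosts, with Pdcd1lg2 at 2.32 and 4.09 and Cd200 and Socs2 lower. Of 8 genes of plasmacytoid cells, 7 were lower in WT hosts and 4 in KO hosts, with Tcf4, their transcription factor, at -0.77 and -0.87. Of markers of other cells, all 7 B cell and all 5 tested neutrophil markers were lower in tumors of both, as were 6 and 2 of 9 T cell markers and 3 and 3 of 5 tested NK cell markers, while Prf1 was higher in tumors of KO hosts at 0.81. Their part in the values of the members was not tested.

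Counts of Clec9a in lungs moved with those of a neighbour, Clec1a. In GENCODE the exons of Clec9a share 184 bases with Clec1b, a platelet receptor gene on the same strand, and none with Clec1a, while 8 bases separate its end from that of Clec1a, a lectin gene of endothelium on the opposite strand. Over the 20 lungs there were 341 to 810 counts of Clec9a, 1191 to 2593 of Clec1a and 126 to 286 of Clec1b. The ratio of Clec9a to Clec1a counts was between 0.267 and 0.332 in every lung. The lungs with most Clec9a, WT at 14 days replicate 6 with 810 counts and KO at 14 days replicates 4 and 3 with 718 and 698, were also those with most Clec1a, at 2545, 2338 and 2593 counts. Tumors held 7 to 22 counts of Clec9a and 10 to 35 of Clec1a, and there the ratio ranged from 0.28 to 1.4. Counts of 2 genes in 1 library share its depth and tissue makeup, and the source of these reads was not tested.

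**Figure D4:**
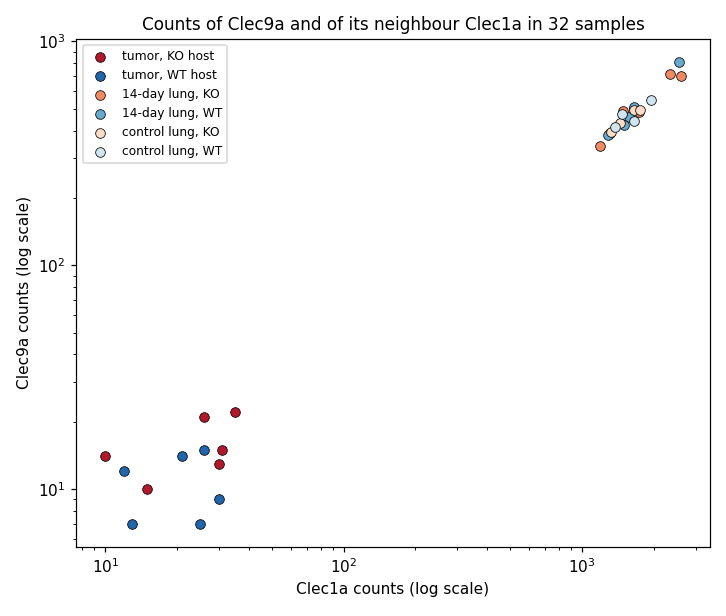
Counts of Clec9a (y axis) against counts of its neighbour Clec1a (x axis), both on log scales, in the 32 samples by group. The 20 lungs lie along a narrow line at a ratio of 0.267 to 0.332, and the 12 tumors lie low and spread out.

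Ccr7 varied more between lungs of 1 group than between groups. In 14-day KO lungs it ranged from 3.32 to 16.2 FPKM (median 8.71) and in 14-day WT lungs from 4.69 to 11.7 FPKM (median 5.44). Control lungs had 5.93, 7.14, 11.1 and 4.54 FPKM in KO mice and 13.7, 11.95, 9.93 and 8.73 FPKM in WT mice. The log2 fold changes were 0.23 with an SE of 0.31 at 14 days and -0.63 with an SE of 0.37 in controls (edgeR FDR 0.902 and 0.516). When control lungs were fitted alone, the latter was called at an FDR of 0.232. Beside it, the 7 B cell markers summed to 25.7 to 72.0 CPM in KO and 84.4 to 114 CPM in WT control lungs, without overlap, and the 9 T cell markers to 43.1 to 65.8 CPM and 51.4 to 81.9 CPM.

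Lymphocyte markers moved with Ccr7 across samples. On log2(CPM + 1), over 20 lungs, it followed the sum of 9 T cell markers with a Pearson r of 0.883 (permutation p 1e-05, adjusted 1e-05) and a Spearman rho of 0.869 (permutation p 1e-05, adjusted 1e-05), where 1e-05 is the smallest that 100000 resamples can give. Without the 2 farthest lungs r was 0.853, within 14-day KO lungs 0.927, within 14-day WT lungs 0.897, and over deviations from the group means 0.872. With the sum of 7 B cell markers r was 0.830 (permutation p 1e-05, adjusted 1e-05) and rho 0.798 (permutation p 4e-05, adjusted 6e-05) over the 20 lungs. Without the 2 farthest lungs r was 0.838, within groups it was 0.942 in 14-day KO and 0.566 in 14-day WT lungs, and over deviations from the group means 0.790. Over 12 tumors, r with T cell markers was 0.787 (permutation p 0.00237, adjusted 0.00284) and rho 0.727 (permutation p 0.00918, adjusted 0.00918). There r was 0.683 without the 2 farthest tumors, 0.355 within KO hosts and 0.793 within WT hosts. Over deviations from the group means r in tumors was 0.632. All tests were two-sided, 6 were run, and the relations were chosen after the data were seen. The part of lymphocytes in the level of Ccr7 was not tested.

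**Figure D5:**
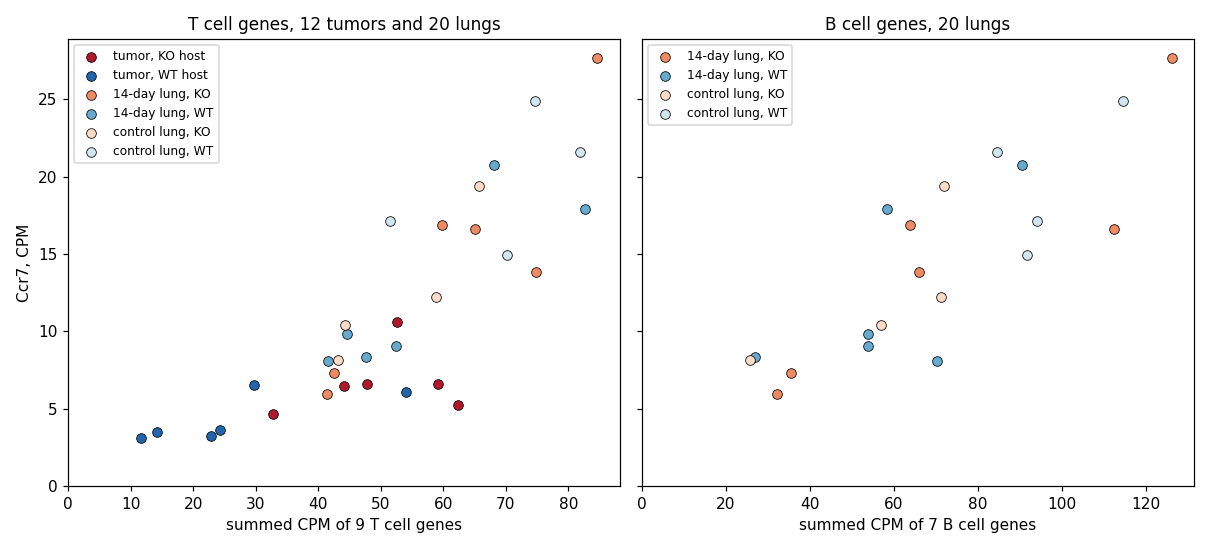
Ccr7 in CPM (y axis) against the summed CPM of 9 T cell genes in 32 samples (left) and of 7 B cell genes in 20 lungs (right), by group. In the lungs Ccr7 is higher where either sum is higher, with r of 0.883 and 0.830 on log2(CPM + 1).

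The genes whose pattern was most like a member's differed between the tissues. In 20 lungs the nearest to Ccr7 by Pearson r of log2 CPM were Satb1, a chromatin organizer of T cells, at 0.972, P2ry10 at 0.933 and C230085N15Rik at 0.927. In 12 tumors, Cd27, a receptor of T cells, at 0.862 and Pdik1l at 0.840 were among the nearest. Nearest to Cd209a in tumors were Pnpla8 at 0.877, Cbr2 at 0.875 and Mrc1, the macrophage mannose receptor, at 0.867, and in lungs Frg1 at 0.758, Gm21750 at 0.702 and Bcl11b at 0.694. For Flt3 they were C030005K06Rik at 0.883, P4htm at 0.879 and Taf8 at 0.875 in tumors and Ndufaf6 at 0.786, Txnrd1 at 0.748 and Ttc39c at 0.723 in lungs. For Xcr1 they were Rom1 at 0.878, 2610524H06Rik at 0.862 and 4931403G20Rik at 0.831 in tumors and C4b at 0.794, Gm37917 at 0.782 and Fam216b at 0.767 in lungs. Such values are the highest of 13830 genes in tumors and of 16029 in lungs, and the samples share their group, so they describe these libraries.

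Ordered by mean FPKM, the 6 groups formed no single order across the members. For Zbtb46, Clec9a and Itgae the 4 lung groups came first and the lowest lung group was separate from the higher tumor group, while all neighbours within a tissue overlapped. For Ly75 the 4 lung groups and the KO tumors, between 6.86 and 7.39 FPKM, overlapped their neighbours, and the WT tumors were separate from the next group. In CPM, which takes no account of length, the KO tumors came first for Ly75. For Batf3 the KO tumors came first at 5.19 FPKM and were separate from the WT tumors at 2.11 FPKM, and all later neighbours overlapped. For Fscn1 both tumor groups came first, at 20.2 FPKM in WT and 19.1 FPKM in KO hosts, and were separate from the next group, the WT control lungs. For Xcr1, Flt3, Ccr7 and Cd209a, every pair of neighbours overlapped.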

How the data were processed

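RNA was measured by stranded paired-end mRNA sequencing in 12 tumors and 20 lungs. The authors aligned reads with STAR to GRCm38 and quantified genes with RSEM. The deposited expected counts are whole numbers without normalization, and the deposited FPKM are RSEM's values, scaled for transcript length and depth, in which 3 noncoding RNAs, Rn7s1, Rn7s2 and Rn7sk, hold 58.1 to 70.2% of each sample's total. FPKM give levels only, and all fold changes come from counts.

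Counts were tested with edgeR 4.0.16 in R 4.3.3 (quasi-likelihood test, TMM, filterByExpr, 1 mean per group, Benjamini-Hochberg over all genes tested). The 12 tumors were in 1 fit and the 20 lungs in 1 fit. Contrasts between tissues came from 1 more fit of all 32 samples, control lungs included. A gene was called at FDR 0.05 in tumors and between tissues and at 0.25 within lungs. The study used DESeq2, run here at version 1.42.0 as an alternative. A summed marker level is the sum of TMM-normalized CPM over a list. The paper describes the animals of each genotype as independent. The labels give only replicate numbers, and no batch was given. Same-numbered samples had correlations of deviations of -0.340 to 0.143 for KO and WT tumors, -0.0761 to 0.214 for KO and WT 14-day lungs, 0.0365 to 0.160 for tumors and lungs of KO hosts and -0.0124 to 0.0549 for those of WT hosts, with no set of pairs all over 0.1, so no pairing was used.

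The members, gene lists and tests were chosen with earlier results of these data known. All members are named, beside called genes of each list (at most the 4 with the smallest p; between tissues, where most genes were called, only some are named), detected ligands, and the 3 genes most correlated with Xcr1, Ccr7, Flt3 and Cd209a, of which 1 is not reported here. The endothelial, Clec1a and Clec1b genes, and the lists without the WT tumor of replicate 2, were added after seeing the values. Ccl21a and Ccl21c were left out because several identifiers share each symbol. Positions and overlaps came from GENCODE M21, and promoters from RefSeq GRCm38.p6. Alternatives were a fit of only the groups compared, a block for the replicate number, other limits, RLE scaling, filters set to none or to 10 counts in each sample, a pseudocount of 0.1 in place of 1, CPM in place of FPKM, and leaving out each sample. The tests were tried on simulated counts with 200 changed genes. Figures and permutation tests used Python 3.11.15 with scipy 1.17.1 and matplotlib 3.10.9.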

Additional observations from a re-analysis of the deposited data

Results flagged for a closer look

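In 6 of 60 groups of a member, the highest or lowest sample lay far from the others by Dixon's limit, where chance flags about 1 in 20 groups. Batf3 was at 1.67 FPKM in the 14-day KO lung of replicate 3, with the next at 0.72 FPKM, on 7 counts. Clec9a was at 47.3 FPKM in the 14-day WT lung of replicate 6, with the next at 31.1 FPKM, and Clec1a was also highest of its group there. Zbtb46 was at 18.5 FPKM in the 14-day WT lung of replicate 2, with the next at 14.4 FPKM. In tumors of KO hosts, Ccr7 was at 5.99 FPKM in replicate 4, with the next at 3.55 FPKM, Cd209a was at 5.70 FPKM in replicate 3, with the next at 2.82 FPKM, and Fscn1 was lowest at 15.6 FPKM in replicate 2, with the next at 19.0 FPKM.

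The effect of the KO on Ly75 differed between tumors and 14-day lungs, by 0.87 on the log2 scale in the test of the difference itself (edgeR FDR 0.0408). The call was lost in 13 of 24 fits without 1 sample. It was also lost at 0.85 (edgeR FDR 0.108) with a block for genotype and replicate number, fitted to tumors and 14-day lungs only.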

How the results depend on the processing

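No member that was called changed direction under any alternative, and of 1704 member values under an alternative, 1674 kept their side of the limit, 22 lost it and 8 gained it. Ly75 in tumors was called under all 6 other settings, at a log2 fold change of 0.98 to 1.03. The number of members called in tumors was 1 to 2 when 1 sample was left out. The second was Batf3, which those fits admitted through the KO tumors. In control lungs of KO against WT mice it rose from 0 to 1 (Fscn1) with at least 10 counts in every sample, to 3 (Fscn1, Ccr7 and Itgae) with only the groups compared, and to 0 to 1 without 1 sample. With at least 10 counts in every sample, only 5 members were tested between tissues, and 5 were called in WT and 4 in KO hosts in place of 9 each; without 1 sample the count was 8 to 10 in WT hosts. With a 2-fold limit it was 6 in WT hosts, without Ly75, Xcr1 and Flt3, and 8 in KO hosts, without Cd209a. For KO against WT in tumor minus lung it was 0 with a 2-fold limit, since Ly75 stood at 0.87, and 0 to 1 without 1 sample. The labels do not say whether replicate numbers mark a shared animal or batch. With the replicate number as a block, Ly75 kept its call in tumors at 0.98. In WT lungs, 14 days against control, Zbtb46 gained a call with that block at 0.33 (edgeR FDR 0.237), so 1 member was called. Between tissues the block was genotype with replicate number, over tumors and 14-day lungs only. There the Ly75 difference lost its call at 0.85 (edgeR FDR 0.108), so 0 members were called. The cause was not tested. Genes called over the settings were 146 to 549 in tumors (347 as reported), 15 to 202 (138) and 3 to 1189 (156) for KO against WT in 14-day and control lungs, 6 to 513 (169) and 0 to 582 (373) for 14 days against control in KO and WT lungs, 1 to 178 (8) for their interaction, 6596 to 14551 (12773) and 6382 to 14042 (12514) for tumor against lung in WT and KO hosts, and 72 to 302 (179) for the KO effect between tissues. Batf3, Xcr1 and Clec9a rested on few counts in tumors, at 3 to 23 counts.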
